A study of Mus musculus with 10 samples.

Results

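The immediate early genes described here are 10 genes taken by symbol, namely Fos, Fosb, Jun, Junb, Egr1, Atf3, Ier2, Dusp1, Nr4a1 and Zfp36. They come from 35705 genes listed for articular cartilage of the mouse knee, of which 23980 had a mean above 0. Cartilage caps of the medial knee were dissected from 10 mice, 5 wild-type control and 5 Mir324-null, which lack a microRNA gene, and each mouse gave 1 RNA sequencing library. The labels do not say how the null allele was made. No agent was given to either genotype, and age, sex, litter and batch are not given in the sources used here. Tissue was frozen in liquid nitrogen after dissection and washing, and ground before RNA extraction. Abundance is in TPM, a share of the transcripts of the library that allows for transcript length, so levels of different genes can be set side by side. TPM holds no read counts and the depth behind each value is unknown. All 10 genes were among the 13841 genes tested, which had to average 1 TPM or more over the mice, although Fosb passed through 1 mouse alone, with a mean of 2.38 TPM over the 10 mice and 0.598 TPM without wild-type replicate 1.

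Immediate early genes are transcribed within minutes of a stimulus, such as a growth factor, mechanical load, injury or stress, from factors already present in the cell. Kinases of the MAP kinase pathways act on serum response factor with its ternary complex partners and on CREB at the promoters, and the messenger RNAs and proteins made are short-lived, so that levels return soon after the stimulus ends. In cartilage, mechanical load and dissection are known to raise them, and the AP-1 factors they encode bind promoters of matrix-degrading proteases.

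The labels name the cells chondrocytes. Of 13 chondrocyte markers, 10 passed the filter, and their sum ran from 2535 to 7528 TPM in the wild-type group and from 2210 to 3660 TPM in the null group. Markers of other cells were also present, among them 8 erythroid genes that summed to between 112712 and 198971 TPM in the wild-type group and between 159377 and 263791 TPM in the null group, and 10 neutrophil genes that summed to 56686 to 112010 and 56243 to 113514 TPM. The cells that carried the immediate early transcripts are therefore not known. In bulk tissue, fewer cells of a type and less RNA per cell cannot be told apart.

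Wild-type replicate 1 stood apart before any comparison was made. It was the highest of the 10 mice for 33.6% of all genes tested, and its log2(TPM + 1) exceeded the median of the other 9 mice by 0.16 for the median gene. It had the lowest erythroid sum, 112712 TPM, the highest chondrocyte sum, 7528 TPM, and the highest mitochondrial share, 6.33% against 3.51% to 5.46% in the other mice. The main results are given with and without it.

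The promoters of 4 of the genes furthest above the other mice in wild-type replicate 1 are shown because they hold TGACG, the core of the sequence that CREB and related factors bind. The letters are the 250 bases before the start site in RefSeq (GRCm38.p6), 5′ to 3′ on the strand of the gene, with TGACG, or CGTCA where it lies on the other strand, in capitals. The last 6 bases of the Fosb window and the last 47 of the Dusp1 window overlap an annotated exon and are left out. Fos lies at chr12:85473640-85473889 (plus strand), Fosb at chr7:19310052-19310295 (minus strand), Nr4a1 at chr15:101266596-101266845 (plus strand) and Dusp1 at chr17:26508520-26508722 (minus strand).
Fos promoter: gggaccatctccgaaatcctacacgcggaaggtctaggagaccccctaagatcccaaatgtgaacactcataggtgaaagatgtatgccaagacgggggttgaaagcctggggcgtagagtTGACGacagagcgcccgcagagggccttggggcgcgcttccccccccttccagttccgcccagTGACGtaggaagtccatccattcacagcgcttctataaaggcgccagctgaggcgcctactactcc
Fosb promoter: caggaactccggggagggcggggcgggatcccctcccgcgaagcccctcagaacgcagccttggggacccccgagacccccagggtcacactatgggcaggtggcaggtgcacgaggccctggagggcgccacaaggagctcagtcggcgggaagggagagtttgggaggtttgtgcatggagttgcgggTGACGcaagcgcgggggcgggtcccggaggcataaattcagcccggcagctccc
Nr4a1 promoter: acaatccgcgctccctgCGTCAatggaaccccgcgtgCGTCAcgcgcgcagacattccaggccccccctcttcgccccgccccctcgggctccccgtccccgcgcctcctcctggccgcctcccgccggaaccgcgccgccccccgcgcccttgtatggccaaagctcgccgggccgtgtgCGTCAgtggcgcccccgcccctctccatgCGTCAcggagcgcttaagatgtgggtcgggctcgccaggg
Dusp1 promoter: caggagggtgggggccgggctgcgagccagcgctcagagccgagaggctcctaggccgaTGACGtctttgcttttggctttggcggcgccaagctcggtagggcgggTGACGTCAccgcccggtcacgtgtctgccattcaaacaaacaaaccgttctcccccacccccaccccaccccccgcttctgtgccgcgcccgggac
Fos held TGACG with its first base 129 and 66 bases before the start, and Fosb held it at 60. Nr4a1 held it at 233, 213, 69 and 40, each time on the other strand. Dusp1 held it at 191 and at 143, where it is part of the palindrome TGACGTCA, the full cyclic AMP response element.

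The same RefSeq windows were searched for 8 genes, all but Egr1 and Ier2. TGACG on either strand was in 6 of the 8, with Junb at 106 and Atf3 at 7 bases before the start, where the Atf3 match lies within an annotated exon, against 17.7% of 32817 promoter windows of the same length. TGACGTCA was in 1 of 8 (1.55% of all windows), in Dusp1. TGACATCA, the variant AP-1 and ATF site, was in 1 of 8 (2.93%), at 45 bases before the start of Jun. The AP-1 site TGANTCA was in 0 of 8 (6.75%), and TATAAA was in 1 (12.4%), in Fos. The CArG box that serum response factor binds was in 1 (1.47%), at 58 bases before the start of Zfp36. An annotated exon of Zfp36 overlaps that window and reaches its far end. Every TGACGTCA also counts as TGACG. A match is a description of the letters and no match says only that the letters are not in this window.

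The messenger RNAs are also marked at the other end. The heptamer TATTTAT, the DNA form of the UAUUUAU core to which the protein of Zfp36 binds, was in the longest annotated 3′ UTR of 6 of the 10 genes, against 29.7% of 12592 genes and 28.0% of those with a 3′ UTR of the same length range, 485 to 2302 bases. Dusp1 and Zfp36 held 3 copies each, Fos 2, and Fosb, Jun and Atf3 1 each. Junb, Egr1, Ier2 and Nr4a1 held 0. Of the genes with more than 1 copy, 1 site each is shown in its 30 bases (GENCODE M21, GRCm38, strand of the gene), with the heptamer in capitals.
Fos: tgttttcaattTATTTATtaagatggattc
Dusp1: gtttttaccttTATTTATttttgtgtaggt
Zfp36: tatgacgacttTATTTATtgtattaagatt
These sites begin at base 656 of 815, base 393 of 690 and base 590 of 774 of the 3′ UTR.

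The 2 mature strands that the null mice lack are shown because their seeds, bases 2 to 8 and in capitals, define the sites looked for. Both come from RefSeq (GRCm38.p6), miR-324-5p at chr11:70012060-70012082 and miR-324-3p at chr11:70012095-70012114, plus strand.
miR-324-5p: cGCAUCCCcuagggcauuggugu
miR-324-3p: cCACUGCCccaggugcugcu
A site for bases 2 to 8 of miR-324-5p, GGGATGC, was in 0 of the 10 longest 3′ UTRs (8.51% of 12592), and a site for miR-324-3p, GGCAGTG, was in 0 of 10 (15.4%).

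Across the 10 mice all of the genes had their highest value in 1 animal, wild-type replicate 1. With TPM as deposited this held for 10 of 10 genes, where 33.6% of all genes tested had their highest value in that mouse. Of the 10, 7 were over 2 times the next highest mouse, which held for 0.795% of all genes tested. After median ratio scaling, which takes out the mouse's general excess, 8 of 10 were highest there (17.3% of all genes) and Jun and Zfp36 were not, and 5 were over 2 times the next mouse (0.326%). After quantile normalization 9 were highest (20.5%), all but Jun, with 6 over 2 times the next mouse (0.355%). The median excess over the other 9 mice was 1.89 on the log2(TPM + 1) scale for the 10 genes and 0.16 for all genes, and 1.73 and -0.030 after median ratio scaling. Together the 10 genes summed to 692 TPM in this mouse, 172 to 218 TPM in the other 4 wild-type mice and 144 to 199 TPM in the null mice. It is 1 mouse, so these counts have no test. Fosb passed the filter through this mouse alone, which fixed its place as highest there and over 2 times the next. The counts and the median excess include Fosb. An outlier rule applied gene by gene is given with the results flagged for a closer look.

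**Figure D1:**
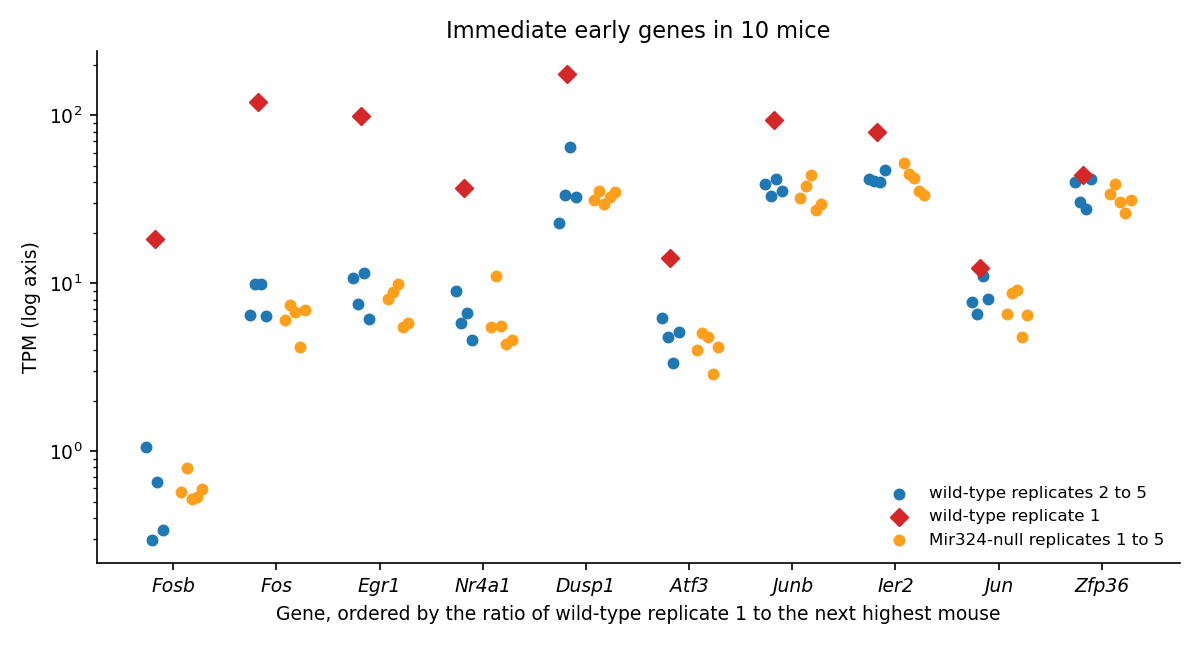
TPM on a log axis (vertical) of each of the 10 genes (horizontal) in 5 wild-type and 5 Mir324-null mice, 1 point a mouse. Wild-type replicate 1 lies at the top of every column, from 17.3 times the next mouse for Fosb to 1.06 times for Zfp36.

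The Fos and Jun families encode leucine zipper proteins that pair to form AP-1, and Fos proteins need a partner such as Jun to bind DNA. Fos (ENSMUSG00000021250, GRCm38 chromosome 12, 85473890 to 85477273, plus strand) was at 119, 6.44, 9.95, 9.86 and 6.38 TPM in wild-type replicates 1 to 5. It was at 6.03, 7.46, 6.79, 4.16 and 6.93 TPM in null replicates 1 to 5. Wild-type replicate 1 was 12.0 times the next mouse, the other 9 mice stayed within a 2.39-fold range, and the genotypes overlapped.

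Fosb, a second Fos family subunit (ENSMUSG00000003545, chromosome 7, 19302696 to 19310051, minus strand), was at 18.5, 1.07, 0.298, 0.658 and 0.340 TPM in the wild-type mice. It was at 0.573, 0.795, 0.519, 0.537 and 0.599 TPM in the null mice. Its ratio of 17.3 to the next mouse was the highest of the 10 genes, but in the other 9 mice it lay at or below 1.07 TPM, and all 5 null values fell inside the wild-type range. Of its annotated transcripts, Fosb-201 was at 14.2 TPM in wild-type replicate 1, 76.7% of the gene's value there. Fosb-201 was at 0.33 TPM in wild-type replicate 2 and listed at 0 in the other 8 mice.

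Jun (ENSMUSG00000052684, chromosome 4, 95049034 to 95052222, minus strand), which can pair with itself or with Fos proteins, was at 12.4, 7.73, 6.52, 11.0 and 8.02 TPM in the wild-type mice. It was at 6.59, 8.76, 9.05, 4.81 and 6.50 TPM in the null mice. Its value in wild-type replicate 1 was 1.12 times that in wild-type replicate 4, the next mouse, and the groups overlapped.

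Junb (ENSMUSG00000052837, chromosome 8, 84974484 to 84978718, minus strand), a Jun family subunit that can restrain Jun activity, was at 93.7, 38.8, 33.2, 41.8 and 35.2 TPM in the wild-type mice. It was at 32.3, 37.9, 44.1, 27.3 and 29.8 TPM in the null mice. Its value in wild-type replicate 1 was 2.12 times that of the next mouse, a null mouse, and the other 9 lay within a 1.61-fold range. Jund, the remaining Jun family gene, named here for its family and not by its values, was at 118 TPM in wild-type replicate 1 and 77.8 to 108 TPM in the others. Fosl2 was at 20.7 TPM in that mouse and 15.0 to 25.0 TPM in the others, so this Fos relative was not highest there.

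Atf3 (ENSMUSG00000026628, chromosome 1, 191170296 to 191218039, minus strand) encodes a stress-responsive zipper protein that binds ATF sites and can pair with Jun. It was at 14.2, 6.25, 4.79, 3.37 and 5.10 TPM in the wild-type mice, and at 3.98, 5.08, 4.79, 2.87 and 4.20 TPM in the null mice. The first wild-type value was 2.27 times the next mouse, and the remaining wild-type mice overlapped the null mice.

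Egr1 and Nr4a1 encode transcription factors outside AP-1, a zinc finger protein and an orphan nuclear receptor. Egr1 (ENSMUSG00000038418, chromosome 18, 34859823 to 34864984, plus strand) was at 98.4, 10.8, 7.57, 11.5 and 6.09 TPM in the wild-type mice, and at 8.004, 8.88, 9.88, 5.48 and 5.79 TPM in the null mice. Wild-type replicate 1 was 8.55 times the next mouse, and the groups overlapped.

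Nr4a1 (ENSMUSG00000023034, chromosome 15, 101254269 to 101274795, plus strand) was at 37.1, 8.95, 5.82, 6.69 and 4.59 TPM in the wild-type mice. It was at 5.49, 11.0, 5.59, 4.37 and 4.58 TPM in the null mice. Wild-type replicate 1 was 3.36 times the next mouse, null replicate 2, which stood above the other null mice. The transcript Nr4a1-204, annotated as a retained intron, was at 5.97 TPM in wild-type replicate 1, 16.1% of the gene's value, and at most 0.38 TPM in the other mice.

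Ier2 (ENSMUSG00000053560, chromosome 8, 84661331 to 84662852, minus strand), a short nuclear protein of the early response, was at 79.1, 41.7, 40.6, 40.2 and 47.0 TPM in the wild-type mice. It was at 51.7, 44.5, 42.5, 35.6 and 33.7 TPM in the null mice. Here wild-type replicate 1 was 1.53 times the next mouse, and the other 9 lay within a 1.54-fold range, the narrowest of the 10 genes.

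Dusp1 and Zfp36 feed back on the response. Dusp1 (ENSMUSG00000024190, chromosome 17, 26505590 to 26562128, minus strand), a phosphatase that inactivates MAP kinases, was at 176, 22.7, 33.4, 64.8 and 32.4 TPM in the wild-type mice, and at 31.4, 35.5, 29.7, 32.8 and 35.2 TPM in the null mice. The null mice varied little, with an SD of 7.46% of their mean, while the wild-type mice held both the highest and the lowest value of the 10. The retained intron transcripts Dusp1-204 and Dusp1-203 were at 12.3 and 6.91 TPM in wild-type replicate 1 and at most 1.85 and 1.80 TPM in the other mice.

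Zfp36 (ENSMUSG00000044786, chromosome 7, 28376784 to 28380253, minus strand), which encodes tristetraprolin, a protein that binds AU-rich elements and promotes decay of the messenger, was at 43.9, 39.9, 30.3, 27.8 and 41.5 TPM in the wild-type mice. It was at 34.2, 39.0, 30.4, 26.3 and 31.4 TPM in the null mice. Wild-type replicate 1 was 1.06 times the next mouse, the smallest lead of the 10 genes.

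The order of levels, by the median over the 10 mice, ran from Ier2 at 42.1, Junb at 36.5, Dusp1 at 33.1 and Zfp36 at 32.8 TPM to Egr1 at 8.44, Jun at 7.87, Fos at 6.86, Nr4a1 at 5.70, Atf3 at 4.79 and Fosb at 0.586 TPM. The first 4 did not separate from one another, since Ier2 exceeded Junb in 7 of 10 mice, Junb exceeded Dusp1 in 5 and Dusp1 exceeded Zfp36 in 5. The step from Zfp36 down to Egr1 held in 9 of 10 mice and failed in wild-type replicate 1. Egr1, Jun, Fos and Nr4a1 overlapped their neighbours, which kept this order in 8 mice for Egr1 over Jun, 7 for Jun over Fos and 7 for Fos over Nr4a1. Nr4a1 exceeded Atf3 in 9 mice, and Atf3 exceeded Fosb in 9, again all but wild-type replicate 1. In that mouse the order was different, with Dusp1 at 176 and Fos at 119 TPM first and Jun at 12.4 TPM last.

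**Figure D2:**
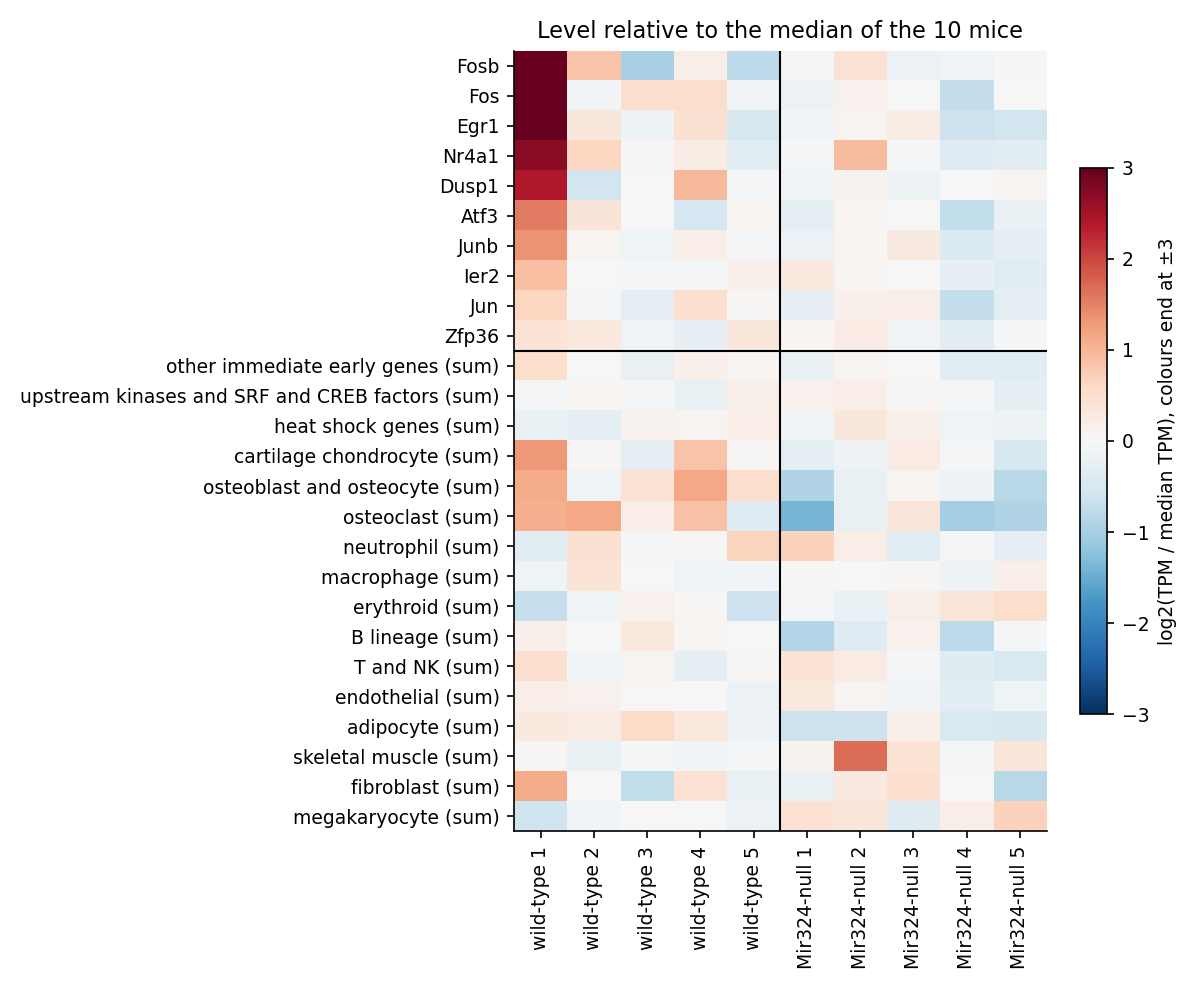
Each row is a gene, or below the line the sum of a list of genes, each column a mouse, and colour gives log2 of TPM over the row's median of 10 mice, with colours ending at 3 in either direction. Wild-type replicate 1 stands out over the 10 genes, and null replicate 4 is the lowest mouse for 7 of them. The share of all genes lowest in null replicate 4 is not given.

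Below wild-type replicate 1, no mouse led for most of the genes. Wild-type replicate 4 was the next highest for Jun, Egr1 and Dusp1, wild-type replicate 2 for Fosb and Atf3, and 5 mice for 1 gene each. The lowest place was shared less evenly, with null replicate 4 the lowest of the 10 mice for Fos, Jun, Junb, Egr1, Atf3, Nr4a1 and Zfp36, and null replicate 5 the lowest for Ier2. These 2 null mice had the highest erythroid sums, 235399 and 263791 TPM, and the lowest size factors in median ratio scaling, 0.912 and 0.864 against 0.949 to 1.16 in the other mice. The part of this in their low values was not tested. The share of all genes that were lowest in null replicate 4 is not given here. The count of members lowest there therefore cannot be read as particular to these genes.

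The spread between mice, as the SD of log2(TPM + 1), was high for part of the list once wild-type replicate 1 was left out. Nr4a1, Dusp1 and Egr1 then lay at percentiles 85.9, 85.1 and 80.0 of all genes tested, Fos at 76.7 and Jun at 72.0. Atf3 lay at 64.2, Zfp36 at 50.1, Junb at 46.6, Fosb at 39.3 and Ier2 at 31.7. Fosb was at a level where the added 1 TPM compresses differences. With all 10 mice Fos, Fosb and Egr1 lay at percentiles 98.5, 98.3 and 98.2.

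The comparison of genotypes asked whether mice that lack miR-324 differ in these genes. All 10 estimates were lower in null mice, but 0 of 10 genes passed an adjusted p of 0.05 (limma, Benjamini-Hochberg over 13841 genes, of which 0 passed), and 0 of 10 had an unadjusted p under 0.05 (11.6% of all genes). Mean Fos was 30.4 ± 49.7 TPM for wild-type against 6.27 ± 1.29 TPM for null mice (mean ± SD, n = 5 each), a difference of -1.07 on the log2(TPM + 1) scale (SE 0.643, limma adjusted p = 0.572, exact permutation p = 0.0952, two-sided). Egr1 averaged 26.9 ± 40.0 and 7.61 ± 1.92 TPM, a difference of -0.88 (SE 0.588, limma adjusted p = 0.622). The adjusted p of the 10 genes ran from 0.572 to 0.747 and the exact permutation p from 0.0952 to 0.579, where the smallest p this design allows is 0.00794. In 0 of the 10 genes did the null mice lie wholly below the wild-type mice, which held for 1.06% of all genes tested. Each of the 10 estimates stayed below 0 under median ratio scaling and under quantile normalization.

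The differences were smaller without 1 animal. Without wild-type replicate 1, Fos averaged 8.16 ± 2.02 TPM in wild-type mice (n = 4) and its difference was -0.33 (SE 0.187, limma adjusted p = 0.690, exact permutation p = 0.198). Egr1 averaged 8.98 ± 2.57 TPM and its difference was -0.21, Dusp1 averaged 38.3 ± 18.3 TPM with -0.11 (-0.57 with all mice), and Nr4a1 averaged 6.51 ± 1.84 TPM with -0.096 (-0.57 with all mice). Junb moved from -0.39 to -0.13, Atf3 from -0.45 to -0.17 and Ier2 from -0.22 to -0.041. Fosb turned from -0.69 to 0.036, at 0.591 ± 0.355 TPM (4 wild-type mice) and 0.605 ± 0.111 TPM (5 null mice). Jun moved least in proportion, from -0.31 to -0.20, and Zfp36 moved from -0.17 to -0.10. The estimate was below 0 for 10 of 10 genes with all mice, against 60.0% of all genes tested, and for 9 of 10 without wild-type replicate 1, against 53.9%. At an unadjusted limma p under 0.05 there were 0 of 10 genes without that mouse, against 8.29% of all genes. The median difference was -0.51 for the 10 genes and -0.045 for all genes, and -0.12 and -0.016 without that mouse.

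**Figure D3:**
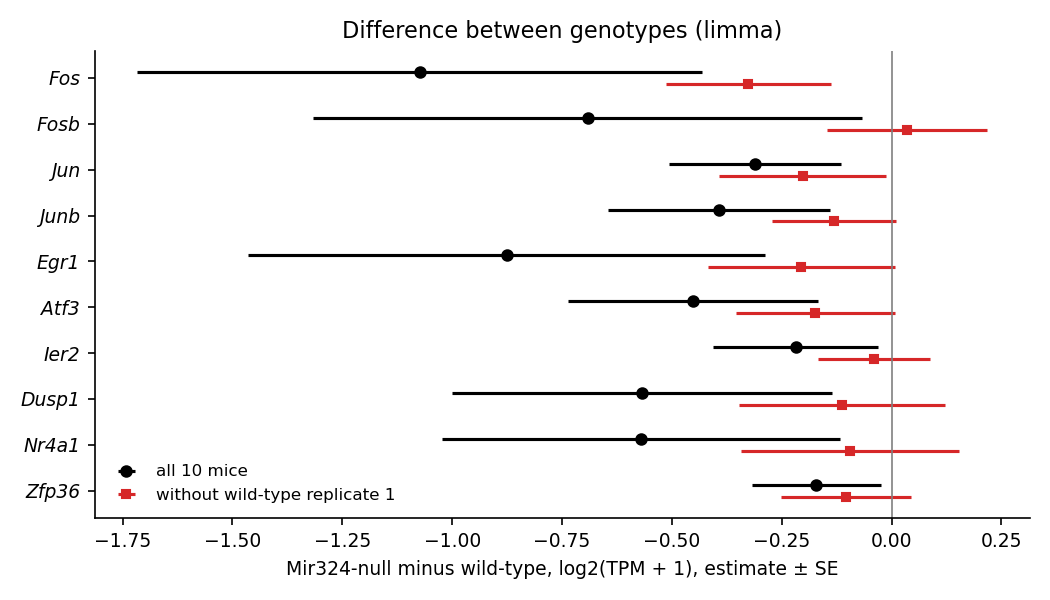
Difference between genotypes (horizontal, log2(TPM + 1), Mir324-null minus wild-type, bars are ± 1 SE from limma) for each gene (vertical), with all 10 mice and without wild-type replicate 1. The estimate of Fos is -1.07 with all mice and -0.33 without that mouse, and that of Fosb crosses 0.

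Whether the genes varied together between mice was examined over all 45 pairs. With 10 mice, Pearson r of log2(TPM + 1) had a median of 0.84 (0.27 to 0.97) and Spearman rho a median of 0.48. After Benjamini-Hochberg adjustment over the pairs, 27 passed by r and 5 by rho (permutation test, two-sided). The median r over all pairs of genes tested was 0.188. These values rest on wild-type replicate 1: without the 2 mice farthest from the median of the first gene, the median r was 0.14, with 29 pairs above 0. With 9 mice, wild-type replicate 1 left out, the median r was 0.32 (-0.59 to 0.92), 37 pairs were above 0 and 1 pair passed (exact permutation test), beside a median of 0.179 over all pairs of genes. The count with 10 mice was also 2 under median ratio scaling and 6 under quantile normalization. The shares of all gene pairs that would pass, or that lie above 0, are not given here. The counts of pairs therefore cannot be read as particular to these genes.

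The pair that passed without wild-type replicate 1 was Jun with Junb, both AP-1 subunits, with r = 0.92 over 9 mice (exact permutation p = 0.000645, adjusted 0.0290) and rho = 0.92 (adjusted 0.0590). Junb with Egr1 had r = 0.87 (exact permutation p = 0.00346, adjusted 0.0779), and Jun with Egr1 had r = 0.77 (p = 0.0139, adjusted 0.157, exact permutation test). Fos with Fosb went the other way, with r = 0.95 over 10 mice and -0.13 over 9. Atf3 with Zfp36 had r = 0.82 (exact permutation p = 0.00696, adjusted 0.104), and the lowest r was that of Atf3 with Dusp1, at -0.59 (exact permutation p = 0.0916, adjusted 0.489). In those 9 mice Fosb lay at or below 1.07 TPM. Differences between pairs in r were not tested.

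**Figure D4:**
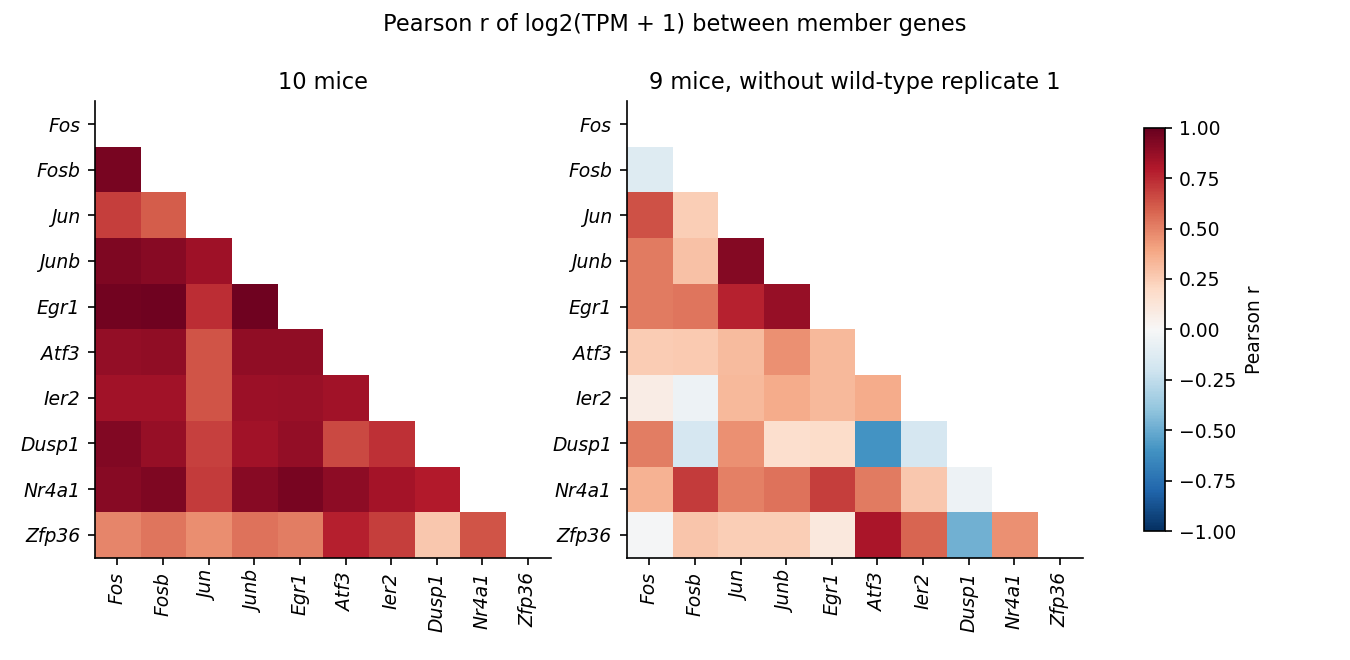
Pearson r of log2(TPM + 1) between each pair of the 10 genes, by colour from -1 to 1, with all 10 mice and with 9 mice, wild-type replicate 1 left out. The median over the 45 pairs is 0.84 in the first and 0.32 in the second, where Jun with Junb has the highest r, 0.92.

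By the naming rule, the genes most like Fos over the 10 mice among the 10324 that averaged 5 TPM or more included 1700021F05Rik (r = 0.96), Eif3k (0.95), Ddrgk1 (0.95) and Rab7b (0.94). Eif3k, which encodes a subunit of a translation initiation factor, was at 299.5 TPM in wild-type replicate 1 and 239.96 to 260.4 TPM in the others, a ratio of 1.15 to the next mouse where Fos had 12.0. Those most like the mean standardised value of the 10 genes were Fry (0.97), Fau (0.97), Tef (0.95), Ambra1 (0.95), Vps39 (0.95) and Ccn1 (0.95). Ccn1, a matricellular protein gene of the early growth response, was at 86.7 TPM in wild-type replicate 1 and 8.37 to 20.6 TPM in the others. These correlations are descriptions over the same 10 mice, share wild-type replicate 1, and have no test.

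Of 51 other immediate early genes, 46 passed the filter, and the excess of wild-type replicate 1 was smaller there. In 24 of 46 this mouse was the highest (33.6% of all genes tested). In 2 it was over 2 times the next mouse (0.795% of all genes tested), Ccn1 at 4.22 times and Nr4a2 at 2.14 times. The median excess was 0.36 on the log2(TPM + 1) scale, against 1.89 for the 10 genes. The relatives of the 10 genes are named here after their values were seen. Egr2 was at 6.09 TPM in that mouse and 1.07 to 3.08 TPM in the others, Egr3 was at 13.3 TPM against 1.86 to 7.67, and Nr4a2 was at 4.99 TPM against 0.601 to 2.33. Ccn2 was at 714 TPM against 199 to 485.

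Between genotypes, 0 of the 46 passed an adjusted p of 0.05 (limma). At an unadjusted p under 0.05, 12 were lower in null mice (7.30% of all genes tested) and 1 was higher (4.28%), and without wild-type replicate 1 there were 7 lower (4.48%) and 0 higher. Nfkbia, which encodes the inhibitor that holds NF-kappaB in the cytoplasm, was at 74.0 ± 4.95 TPM for wild-type against 56.9 ± 8.43 TPM for null mice (mean ± SD, n = 5), a difference of -0.38 (limma adjusted p = 0.306). Dusp4, a nuclear MAP kinase phosphatase, had a difference of -0.60 (limma adjusted p = 0.316), and Plk2, a polo-like kinase, had -0.55 (limma adjusted p = 0.319). On the other side, the transcription factor gene Myc was at 25.0 ± 4.22 and 30.6 ± 3.18 TPM (difference 0.29, limma adjusted p = 0.416), Btg2, an antiproliferative gene, had 0.19 and Ier5 had 0.034. Each of these 6 genes was named by the smallest unadjusted p in its direction and failed the adjustment.

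The kinases and factors upstream of the response did not share the pattern. All 20 listed kinases, SRF partners and CREB family genes passed the filter. Wild-type replicate 1 was the highest mouse for 2 of them (33.6% of all genes tested). Their sum there, 845 TPM, lay inside the range of the other wild-type mice, 749 to 989 TPM. Between genotypes 0 of 20 had an unadjusted p under 0.05 (limma, 11.6% of all genes tested), with a median difference of 0.013. Without wild-type replicate 1 there was 1 (8.29%), Crem. Under median ratio scaling there were 1 lower and 1 higher, against 857 and 916 of 13819 genes. Under quantile normalization there were also 1 lower and 1 higher, against 929 and 884 of 13841 genes. Crem, a CREB family gene, had a difference of 0.30 with all mice and 0.41 without that mouse, Atf1 had 0.20 and 0.11, and the ribosomal S6 kinase Rps6ka1 had 0.14 and 0.12. Elk3, a ternary complex factor, had -0.30 and -0.23, Rps6ka3 had -0.32 and -0.39, and Elk4 had -0.14 and -0.096.

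Heat shock genes, which report on protein damage and temperature, were listed beside them. Of 11, all passed the filter, and wild-type replicate 1 was the highest mouse for 1 (33.6% of all genes tested). Their sum was 1880 TPM there, 1777 to 2501 TPM in the other wild-type mice and 1961 to 2722 TPM with Mir324 lost. The inducible Hspa1a was an exception to the low rank, at 8.58 TPM in wild-type replicate 1, 10.1 TPM in wild-type replicate 4 and 1.13 to 3.62 TPM in the other 8 mice. Hspa1b was at 15.9 and 19.4 TPM in the same mice and 2.71 to 6.04 TPM elsewhere. Between genotypes 0 of 11 had an unadjusted p under 0.05 (limma, 11.6% of all genes tested), with or without wild-type replicate 1. Dnajb1, Hsph1 and Hspd1 had differences of 0.15, 0.18 and 0.099, and Hspb1, Hspa1b and Hspa1a had -0.56, -0.77 and -0.56. Without that mouse they were 0.10, 0.13 and 0.059, and -0.41, -0.52 and -0.29.

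**Figure D5:**
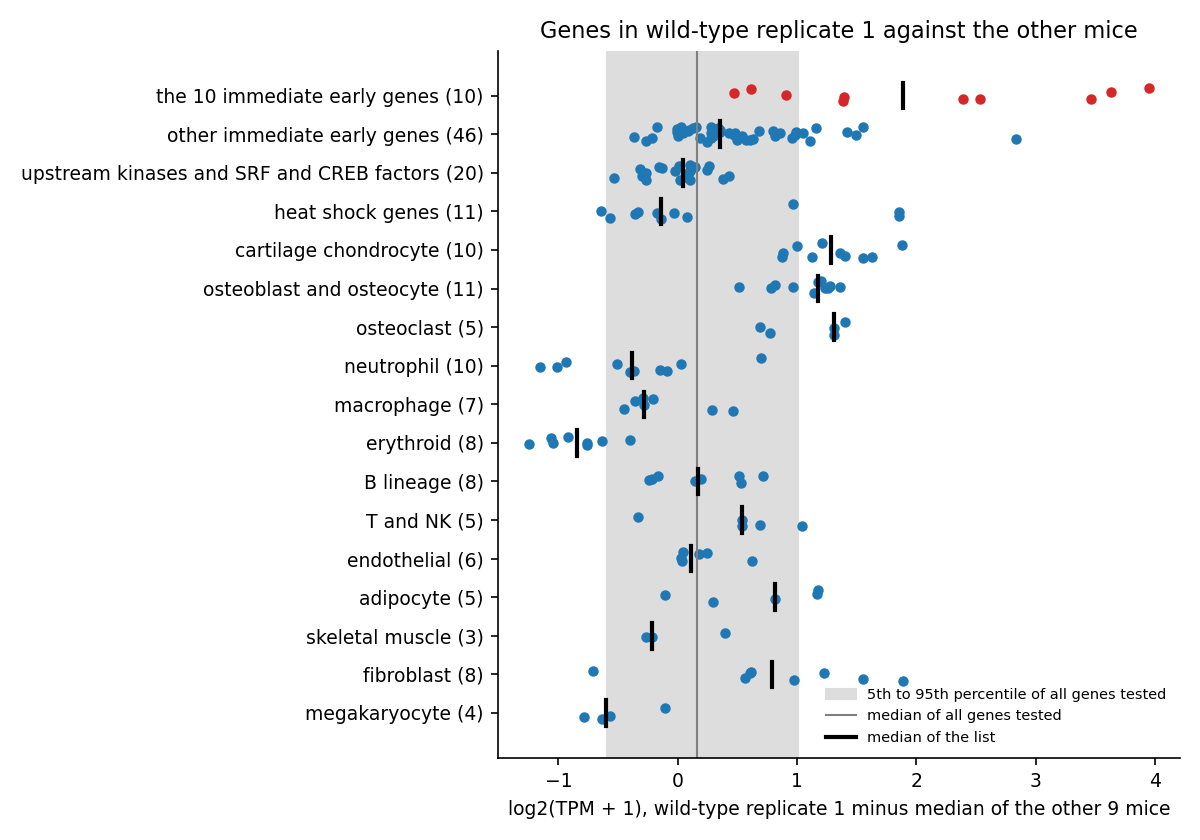
Each point is a gene, with its log2(TPM + 1) in wild-type replicate 1 minus the median of the other 9 mice (horizontal), grouped by list (vertical, number of genes tested in brackets). The 10 genes have a median of 1.89, other immediate early genes 0.36, upstream kinases and factors 0.041 and heat shock genes -0.14.

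Markers of some cell types moved with wild-type replicate 1. Chondrocyte markers were highest there in 9 of 10 tested (33.6% of all genes tested), with a median excess of 1.28 (0.16 for all genes). Their sum was 7528 TPM against 2535 to 5533 in the other wild-type mice. Matn3 was listed at 0 in this mouse. The proteoglycan gene Acan was at 287 TPM there and 60.2 to 146 TPM in the others, and Sox9, the chondrocyte transcription factor, was at 19.8 and 4.34 to 9.42 TPM. The counts that follow stand beside the same 33.6% of all genes. Osteoblast and osteocyte markers were highest there in 9 of 11 (sum 12504, others 3094 to 12925 TPM). Osteoclast markers were highest there in 3 of 5 (2127, others 377 to 2227) and fibroblast markers in 5 of 8 (2209, others 580 to 1447). Macrophage markers were highest there in 0 of 7 (770, others 757 to 1128 TPM), and neutrophil markers in 1 of 10 (56686, others 56243 to 113514). T and NK markers were highest there in 3 of 5 (163, others 84.0 to 155 TPM). Erythroid markers were highest there in 0 of 8 (112712, others 118671 to 263791) and megakaryocyte markers in 0 of 4 (1029, others 1192 to 2504). The count was 2 of 8 for B lineage, 2 of 6 for endothelial, 2 of 5 for adipocyte and 0 of 3 for skeletal muscle markers. The part of cell makeup in the level of the 10 genes was not tested. As ratios to the median of the other 9 mice, Fos stood at 17.6, Fosb at 32.2 and Egr1 at 12.3, Acan at 3.71 and Sox9 at 3.46. Dusp1 stood at 5.36, Nr4a1 at 6.64, Atf3 at 2.96, Junb at 2.66, Ier2 at 1.90, Jun at 1.60 and Zfp36 at 1.40.

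Between genotypes, 0 of these markers had an adjusted p under 0.05 (limma). At an unadjusted p under 0.05, 7 of 10 chondrocyte, 9 of 11 osteoblast and osteocyte, 5 of 5 osteoclast and 5 of 5 adipocyte markers were lower in null mice (7.30% of all genes tested). Without wild-type replicate 1 these counts were 5, 5, 4 and 4 (4.48%). The median differences were -0.66, -0.89, -1.15 and -0.78, and -0.48, -0.72, -1.03 and -0.68 without that mouse. B lineage markers were also lower at that p in 4 of 8 and endothelial markers in 2 of 6, and in 2 and 1 without wild-type replicate 1. In the other direction, 5 of 8 erythroid and 4 of 4 megakaryocyte markers were higher in null mice at an unadjusted p under 0.05 (4.28%). Without wild-type replicate 1 these counts were 3 and 1, against 527 of all 13841 genes tested. Fibroblast markers split evenly, with 4 estimates lower and 4 higher. An unadjusted p under 0.05 was held by 0 of 8 fibroblast, 0 of 10 neutrophil and 0 of 7 macrophage markers (11.6% of all genes tested). It was also held by 0 of 5 T and NK and 0 of 3 skeletal muscle markers. Without wild-type replicate 1, 2 fibroblast markers were higher at that p, beside the same 527 genes. The 10 immediate early genes, with a median of -0.51, had 0 at an unadjusted p under 0.05. The part of these markers in the differences of the 10 genes was not tested.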

How the data were processed

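The authors deposited 1 table of TPM values with a column for each of the 10 mice, made with kallisto per the submitters' processing notes. Those notes also name GRCh38, with no role given, while the transcripts carry mouse Ensembl identifiers. The version, index and trimming are not given in the sources used here. Of 116912 transcripts, 115440 matched GENCODE M21 without their version, and the 1472 others held 0.275% to 0.356% of a library. TPM was summed per gene and log2(TPM + 1) was fitted for 13841 genes with limma 3.58.1 in R 4.3.3 (eBayes with trend, two-sided, Benjamini-Hochberg, threshold 0.05), with no covariate, since no batch is given. The fit was also run on simulated data with independent normal noise for each gene and no outlying mouse. Its outcome is not given here, and that setting differs from these data, so it does not measure power for these genes. Exact permutation tests covered all 252 divisions of 5 against 5 mice (126 without wild-type replicate 1), and correlations over 10 mice used 100000 resamples. Python 3.11.15 with numpy 2.4.6, pandas 2.3.3, scipy 1.17.1 and matplotlib 3.10.9 did the rest.

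All 10 genes are named. Each other list gives the 3 lowest unadjusted p-values among higher and among lower genes, and the rule adds the 6 genes most correlated with Fos, of which 2 are not reported here, and with the mean standardised value. The 10 genes and all lists were chosen with earlier results of these data known. The limma p-values set a genotype difference against the spread between these mice within a genotype. Permutation p-values set a difference or a correlation against rearrangements of these mice. Values are shares of a library, so abundant blood transcripts, with haemoglobin at 11.2% to 26.1%, lower all others; median ratio scaling, quantile normalization and rescaling without haemoglobin genes were tried beside other pseudocounts, filters and left-out mice.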

Additional observations from a re-analysis of the deposited data

Results flagged for a closer look

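In 9 of 20 groups the highest mouse lay further from the others in TPM than Dixon's 95% limit for 5 samples allows. Each group was the 5 mice of 1 genotype for 1 gene, and the limit was a gap over 0.71 of the range. The smallest gaps flagged were 0.725 of the range for Dusp1 and 0.734 for Atf3, both in wild-type replicate 1. Chance flags about 1 group in 20 where values are normally distributed, which was not tested for TPM. The rule was not applied to log2(TPM + 1), the scale of the genotype comparison, so the flags are stated for TPM only. The genes are not independent, since 8 of the 9 flags are the same mouse. Wild-type replicate 1 was flagged at 119 TPM for Fos, 18.5 TPM for Fosb, 93.7 TPM for Junb, 98.4 TPM for Egr1, 14.2 TPM for Atf3, 79.1 TPM for Ier2, 176 TPM for Dusp1 and 37.1 TPM for Nr4a1. Jun and Zfp36 were not flagged in it. Mir324-null replicate 2 was flagged at 11.0 TPM for Nr4a1, where the other 4 null mice lay between 4.37 and 5.59 TPM.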

How the results depend on the processing

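The count of 0 of 10 genes past an adjusted p of 0.05 was the same under all 20 alternatives, with a smallest adjusted p of 0.397. Of 199 estimates under the alternatives, 198 kept their sign (Fosb was not tested at a mean of 5 TPM). The exception was Fosb, at 0.036 without wild-type replicate 1, and between -0.94 and 0.036 over the left-out mice. Without wild-type replicate 1 the other 9 estimates also shrank by over 1.5 times, as the values in the report show. Other moves of that size were Jun at -0.20 and Zfp36 at -0.10 without Mir324-null replicate 4, Zfp36 at -0.26 without wild-type replicate 4, Zfp36 at -0.11 under median ratio scaling, Zfp36 at -0.084 and Ier2 at -0.13 without haemoglobin genes, and Fosb at -0.41 and Atf3 at -0.29 with a pseudocount of 5. The 27 pairs of genes past the threshold became 2 under median ratio scaling and 6 under quantile normalization. Over the left-out mice they ran from 1 to 29, with 1 without wild-type replicate 1, 15 without wild-type replicate 3, 18 without Mir324-null replicate 1, 15 without Mir324-null replicate 2, 9 without Mir324-null replicate 4 and 13 without Mir324-null replicate 5. The causes were not tested, and neither was the part of the smaller number of mice. With the replicate number as a block, 0 genes passed and the estimate of Fos was -1.07 (limma adjusted p = 0.649). Mice of the same number had correlations of -0.14 to 0.056 between their deviations from the group means. Of the 5, 0 matched their own number best. Whether mice of the same number share a litter or batch is not given and was not tested. The scalings of the counts of genes highest in wild-type replicate 1 (10, 8, 9 and 10 of 10) were chosen after seeing the data. Depth is unknown, and n = 5 mice limits the precision.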
